A study of Mus musculus with 16 samples.

Results

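The 4 methionine sulfoxide reductase genes of the mouse (Msra, Msrb1, Msrb2 and Msrb3) and the 3 genes of the opposing MICAL oxidases (Mical1, Mical2 and Mical3) were followed at the RNA level in heart and liver. These 7 genes were taken by symbol from the 48709 Ensembl gene identifiers of the count table, after each identifier was matched without its version to GENCODE M21. All 7 were found. RNA came from 4 Msr quadruple knockout mice (QKO) and 4 wild-type mice (WT), all untreated C57BL/6J females of 3 to 6 months. Each animal gave a heart and a liver, so that QKO heart, WT heart, QKO liver and WT liver held 4 libraries each. The labels name no single allele of the knockout and do not say which exons were removed, or whether any animals were littermates, so the p-values measure the spread between these 8 animals.

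Oxidation of a methionine gives methionine sulfoxide in an S or an R form, and the reductases turn it back into methionine. The MsrA enzyme acts on the S form, and the MsrB enzymes act on the R form in proteins. MsrB1 is a selenoprotein of cytosol and nucleus, MsrB2 resides in mitochondria, and MsrB3 is found in the endoplasmic reticulum, with a mitochondrial form known in human. The MICAL proteins are flavin monooxygenases that oxidise methionines of actin to the R sulfoxide, which takes filaments apart, and MsrB1 is known to reverse this step. MICAL1 binds Rab proteins and acts downstream of plexins, MICAL2 acts on nuclear actin and through it on the transcription factor SRF, and MICAL3 takes part in the docking of secretory vesicles.

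The reductases lie at chr14:64122625-64455903 (Msra, minus strand), chr17:24736642-24742778 (Msrb1, plus strand), chr2:19371440-19394976 (Msrb2, plus strand) and chr10:120781096-120899101 (Msrb3, minus strand) on GRCm38, the same assembly as the mm10 build of the submitters. The oxidases lie at chr10:41476314-41487032 (Mical1, plus strand), chr7:112225856-112413106 (Mical2, plus strand) and chr6:120931707-121130999 (Mical3, minus strand). The coding stretch around the catalytic residue shows what each reductase gene encodes at the site that reduces the sulfoxide. Each stretch is 51 bases of a GENCODE M21 transcript, written 5′ to 3′ on the coding strand, with the catalytic codon in capitals. It is codon 72 of Msra, codon 95 of Msrb1, codon 162 of Msrb2 and codon 151 of Msrb3.
Msra: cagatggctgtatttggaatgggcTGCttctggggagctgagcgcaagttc
Msrb1: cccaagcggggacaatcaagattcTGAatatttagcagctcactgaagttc
Msrb2: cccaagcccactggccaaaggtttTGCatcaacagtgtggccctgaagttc
Msrb3: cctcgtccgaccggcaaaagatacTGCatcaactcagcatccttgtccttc
Msra, Msrb2 and Msrb3 carry TGC, a cysteine codon, at this place. Msrb1 carries TGA, which is read as selenocysteine in this gene, at chr17:24740158-24740160. Between the aligned MsrB stretches, 31 of 51 bases were identical for Msrb2 and Msrb3, 28 for Msrb1 and Msrb2, and 21 for Msrb1 and Msrb3.

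The oxidases are shown at the glycine-rich motif that binds the flavin (glycine, any residue, glycine, any 2 residues, glycine), whose 6 codons are in capitals in stretches of 66 bases from the same source. The first marked codon is codon 91 of Mical1 and codon 93 of both Mical2 and Mical3.
Mical1: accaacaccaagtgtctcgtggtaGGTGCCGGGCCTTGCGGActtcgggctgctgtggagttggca
Mical2: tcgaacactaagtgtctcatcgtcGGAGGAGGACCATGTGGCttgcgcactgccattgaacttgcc
Mical3: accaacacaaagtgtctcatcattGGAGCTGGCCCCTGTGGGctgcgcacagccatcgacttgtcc
Mical2 and Mical3 shared 49 of 66 bases here, Mical1 and Mical3 shared 45, and Mical1 and Mical2 shared 42. The motif was found in 3 of 5 coding transcripts of Mical1, 2 of 9 of Mical2 and 4 of 10 of Mical3. Incomplete transcript models were not left out of these counts, and each was read from its first coding base. A transcript counted without the motif may thus be a fragment. The values below are counts per gene and do not separate transcripts with the motif from those without it.

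Total counts ran from 42.1 to 72.6 M in heart and from 37.9 to 67.9 M in liver, of which protein-coding genes held 9.21 to 28.2 M in heart and 21.6 to 40.7 M in liver. Ribosomal RNA, counted as the sum of the symbols Gm42418, CT010467.1 and AY036118, took 31.3 to 56.8% of the counts in 6 heart libraries. It took 0.139% in QKO heart 4, 7.20% in WT heart 4, and 0.0788 to 0.219% in the livers. The 6 cardiomyocyte markers summed to 41400 to 46500 counts per 1 M protein-coding counts in QKO hearts and 32800 to 41000 in WT hearts, and to 13.4 to 80.9 in livers. The 6 hepatocyte markers summed to 73400 to 88900 in QKO livers and 67000 to 79100 in WT livers, and to 148 to 787 in hearts, so each tissue carried the markers of its label. All QKO hearts were above all WT hearts in the cardiomyocyte sum, and its part in the heart results was not tested. Some WT livers also held RNA of other organs: WT liver 3 and WT liver 4 had sums of 1090 and 301 over 5 pancreatic acinar markers, where the remaining livers had 1.25 to 3.85. Over 7 skeletal muscle markers, QKO liver 2 had 24.3 and WT liver 4 had 299, against 0.743 to 3.66 in the other livers. In bulk tissue, fewer cells of a type and less RNA per cell cannot be told apart.

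Levels are given as CPM, counts per 1 M of a library's effective size, which TMM normalization (edgeR) set over the 16 libraries. QKO and WT were tested within each tissue by the quasi-likelihood F test of edgeR across all genes that passed its expression filter, with Benjamini-Hochberg adjustment and a threshold of 0.05. In heart, 4 of the 7 genes passed, all of them reductases: Msra, Msrb2 and Msrb3 fell and Msrb1 rose, where 0.165% of 16974 genes passed, 0.0943% lower and 0.0707% higher. In liver, 2 of the 7 passed, Msrb2 and Msrb3, which both fell, where 0.0846% of 17738 genes passed, 0.0282% lower. No Mical gene passed in either tissue. The knockout targets these reductases. The falls of Msrb2 and Msrb3 match the labels in both tissues. Msra fell only in part and Msrb1 was higher in QKO hearts, so these genes do not check the labels. Counts from outside a deleted part check nothing, and the deleted parts are not given.

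Msra, the reductase of the S form, kept most of its RNA. QKO hearts had 7.01, 7.19, 6.78 and 7.66 CPM, against 10.2, 11.3, 10.5 and 9.40 CPM in WT hearts. QKO livers had 36.2, 34.2, 34.2 and 31.0 CPM, against 59.0, 61.5, 53.2 and 48.3 CPM in WT livers. All QKO libraries were below all WT libraries in both tissues. The log2 fold change of QKO over WT was -0.52 (SE 0.0855, adjusted p = 0.0263 by edgeR with Benjamini-Hochberg adjustment) in heart and -0.72 (SE 0.124, adjusted p = 0.0867) in liver. The heart call is near the threshold: leaving out single libraries gave adjusted p-values of 0.0258 to 0.123, and the call held only without WT heart 4. The liver change did not pass with edgeR, whereas DESeq2 gave an adjusted p of 2.17e-04.

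Msrb1, the selenoprotein that reverses actin oxidation, was higher in QKO hearts and showed no call in liver. QKO hearts had 18.5, 20.6, 21.3 and 23.6 CPM, against 15.8, 16.1, 14.97 and 13.8 CPM in WT hearts. The heart groups did not overlap, and the log2 fold change was 0.48 (SE 0.0818, adjusted p = 0.0337 by edgeR with Benjamini-Hochberg adjustment). QKO heart 4 and WT heart 4, the libraries with the least ribosomal RNA, held the highest and the lowest of these CPM levels. Per 1 M protein-coding counts, QKO heart 4 was again the highest (72.5), but WT heart 4 was the highest of the WT hearts (45.3). Without these libraries, the log2 fold change was 0.37 and its adjusted p was 0.183 by edgeR. The call was kept in only 1 of the 8 fits that left out 1 library, that without QKO heart 1 (adjusted p of 0.0171 to 0.127 by edgeR).

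QKO livers had 65.9, 69.7, 103 and 63.4 CPM of Msrb1, against 107, 103, 82.4 and 102 CPM in WT livers. QKO liver 3 was as high as the WT livers, while the other 3 QKO livers were below every WT liver. The log2 fold change was -0.39 (SE 0.175, 95% interval -0.77 to -0.01, adjusted p = 1.00 by edgeR with Benjamini-Hochberg adjustment). Without QKO liver 3 it was -0.58 with an adjusted p of 0.683.

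Msrb2, the mitochondrial reductase, was close to absent from QKO libraries. Its raw counts were 4, 8, 6 and 10 in QKO hearts, against 527, 353, 340 and 1112 in WT hearts, and 4, 3, 0 and 3 in QKO livers, against 240, 567, 386 and 164 in WT livers. On the CPM scale QKO hearts had 0.116 to 0.230 CPM and WT hearts 12.01 to 14.6 CPM, while QKO livers had 0 to 0.0459 CPM and WT livers 2.51 to 6.24 CPM. The groups lay far apart in both tissues. From summed counts scaled for library size, QKO hearts held 1.17% of the WT level (95% exact binomial interval 0.776 to 1.70%) and QKO livers 0.719% (0.344 to 1.33%), intervals that cover counting error only. The adjusted p of edgeR was 4.71e-11 in heart and 2.87e-05 in liver.

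Msrb3, the reductase of the endoplasmic reticulum, kept a larger remainder. QKO hearts had 7.78, 8.69, 7.60 and 7.43 CPM, against 48.1, 48.3, 50.2 and 46.4 CPM in WT hearts. QKO livers had 2.31, 1.89, 1.68 and 3.07 CPM, against 10.8, 8.33, 8.50 and 7.77 CPM in WT livers. The groups did not overlap in either tissue, and Msrb3 fell by 2.62 on the log2 scale in heart (SE 0.0696, adjusted p = 4.71e-11 by edgeR) and by 1.99 in liver (SE 0.204, adjusted p = 0.00194). The antisense gene Gm15910, which lies within the Msrb3 locus on the other strand and shares no exon base with it, had 2.09 to 5.03 CPM in QKO hearts and 3.70 to 4.81 CPM in WT hearts, and its log2 fold change of -0.25 (SE 0.260, adjusted p = 0.849 by edgeR) did not pass.

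**Figure D1:**
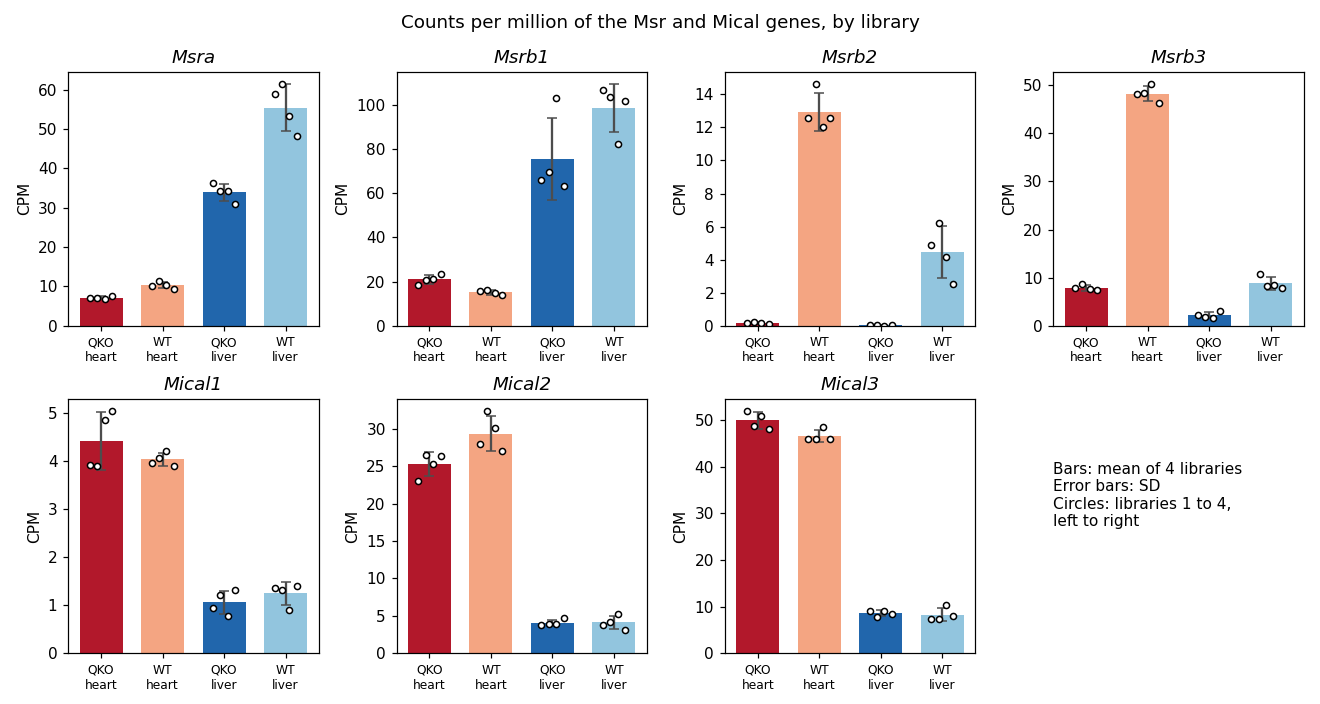
CPM of the 7 genes on linear axes, 1 panel for each gene, with QKO left of WT within each tissue; bars are means of 4 libraries, error bars are SD, and circles are libraries 1 to 4 from left to right. Msrb2 and Msrb3 of QKO lie far below WT in heart and liver, and the Mical bars of heart stand above those of liver in both genotypes.

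The Mical genes were next compared between genotypes. Mical1 had 3.91, 3.88, 4.84 and 5.03 CPM in QKO hearts, against 3.96, 4.06, 4.20 and 3.90 CPM in WT hearts. In liver it had 0.930, 1.20, 0.780 and 1.31 CPM in QKO, against 1.35, 1.32, 0.895 and 1.40 CPM in WT. The groups overlapped in both tissues. The log2 fold change was 0.14 in heart (95% interval -0.11 to 0.40, adjusted p = 0.814 by edgeR) and -0.23 in liver (-0.76 to 0.30, adjusted p = 1.00). Mical1 shares 905 bases, 15% of its exon length, with Smpd2 on the other strand, and the strand setting of the counting is not given in the sources used here. Smpd2, a sphingomyelin phosphodiesterase gene, averaged 7.48 ± 1.12 CPM in QKO hearts and 6.96 ± 0.817 CPM in WT hearts, and 9.37 ± 1.15 CPM in QKO livers and 8.03 ± 0.699 CPM in WT livers (SD, n = 4 each), a higher mean CPM than that of Mical1 in each group.

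Mical2, the oxidase of nuclear actin, had 23.0, 26.6, 25.3 and 26.4 CPM in QKO hearts, against 28.0, 32.4, 30.2 and 27.0 CPM in WT hearts. All QKO hearts were below all WT hearts, by a narrow gap between 26.6 and 27.0 CPM. With it, 5 of the 7 genes had heart groups that did not overlap, 4 of them lower and 1 higher, as had 4.67% of all genes tested, 2.37% lower and 2.3% higher. In liver 3 of 7 were so (Msra, Msrb2 and Msrb3, all lower), as were 2.12% of all genes, 1.07% lower. Counted per 1 M protein-coding counts, the Mical2 groups overlapped in heart (60.7 to 80.9 in QKO and 78.3 to 88.5 in WT), which left 4 of the 7 genes in heart and 3 in liver. The heart log2 fold change of Mical2 was -0.21 (SE 0.0730, 95% interval -0.37 to -0.05), and its adjusted p of 0.655 by edgeR did not pass. In liver Mical2 had 3.81, 3.95, 3.88 and 4.66 CPM in QKO, against 3.80, 4.15, 5.29 and 3.14 CPM in WT, with a log2 fold change of -0.02 (95% interval -0.41 to 0.38, adjusted p = 1.00). The liver groups overlapped throughout. The Mical2 model of GENCODE M21 spans the locus that RefSeq lists as Micalcl, so its counts may include that unit.

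Mical3, the oxidase of vesicle docking, had the highest CPM of the 3 oxidases. QKO hearts had 52.0, 48.9, 50.9 and 48.2 CPM, against 46.0, 46.1, 48.7 and 46.1 CPM in WT hearts. QKO livers had 9.12, 7.85, 9.03 and 8.29 CPM, against 7.30, 7.37, 10.4 and 7.96 CPM in WT livers. The groups overlapped in both tissues. The log2 fold change was 0.10 in heart (95% interval -0.03 to 0.22, adjusted p = 0.738 by edgeR) and 0.04 in liver (-0.29 to 0.37, adjusted p = 1.00). The heart intervals of Mical2 and Mical3 were narrower than their liver intervals.

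WT liver 3, which held the most pancreatic RNA, had the highest Mical2 and Mical3 and the lowest Mical1 and Msrb1 of the WT livers. WT liver 4, with pancreatic and skeletal muscle RNA, had the lowest Mical2, Msra, Msrb2 and Msrb3. Without both libraries, the liver log2 fold changes were -0.32 for Mical1, 0.04 for Mical2 and 0.23 for Mical3, with adjusted p-values of 0.795 to 0.980 by edgeR. For the reductases they were -0.82 for Msra, -0.46 for Msrb1, -7.35 for Msrb2 and -2.08 for Msrb3, and again Msrb2 and Msrb3 passed. The part of these organs' RNA in the liver levels of the 7 genes was not tested further.

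**Figure D2:**
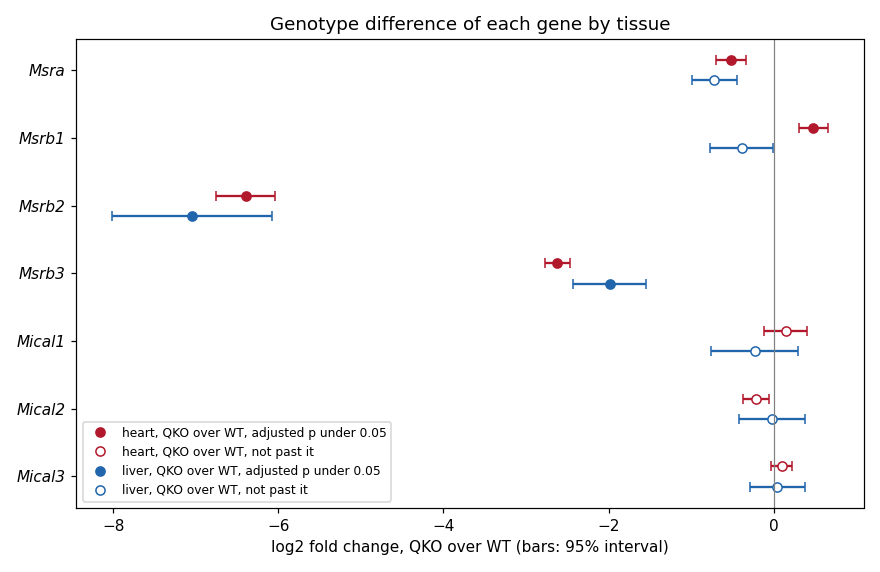
Log2 fold change of QKO over WT for each gene in heart and in liver, with 95% intervals from the edgeR fits of each tissue and filled points for an adjusted p under 0.05. The intervals of Msrb2 and Msrb3 lie far below 0 in both tissues, Msrb1 lies above 0 in heart and below 0 in liver, and the Mical intervals lie within 1 log2 unit of 0.

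The difference between the tissues in the effect of genotype was tested in a fit of all 16 libraries. None of the 7 genes passed, and 1 of 19587 genes did (0.00511%), Ripk4, named after its values were seen; with the animal as a block, 0 genes passed. Of the 7, Msrb1 had the term with the smallest unadjusted p, 0.86 on the log2 scale, heart effect minus liver effect (SE 0.206, 95% interval 0.42 to 1.29, adjusted p = 0.851 by edgeR). Msrb3 had -0.65 (SE 0.208, adjusted p = 1.00), and the Mical terms were 0.35 for Mical1, -0.20 for Mical2 and 0.04 for Mical3. The intervals of the 3 Mical terms included 0. At an unadjusted p under 0.05, 784 genes (4%) passed by edgeR, and by DESeq2 with adjustment 12 genes passed.

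The tissues themselves differed for all 7 genes in WT animals, in both directions. The oxidases and 2 reductases were higher in heart: the log2 fold change of WT heart over WT liver was 2.85 for Mical2, 2.51 for Mical3, 2.46 for Msrb3, 1.72 for Mical1 and 1.55 for Msrb2. The other reductases were lower in heart, with -2.42 for Msra and -2.69 for Msrb1. All 7 passed by edgeR (adjusted p at most 8.34e-05), as did 72.5% of the 18204 genes tested, 35.6% higher and 36.9% lower, so that the count itself does not set these genes apart. In QKO animals, 6 of the 6 genes tested passed in the same directions, where 74.3% of 18039 genes passed, 37.2% higher and 37.1% lower: Msra -2.21, Msrb1 -1.81, Msrb3 1.84, Mical1 2.09, Mical2 2.67 and Mical3 2.58. Msrb2 did not pass the expression filter in QKO libraries. These fits held no term for the animal, although each animal gave both tissues. With the animal as a block, 7 genes passed in WT and 6 in QKO by edgeR.

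Within single animals each gene kept its direction between the tissues, Msrb2 of QKO left out for its low counts, while the order of the ratios differed between animals. The heart level of Mical3 was 5.64 to 6.23 times the liver level in the 4 QKO animals and 4.70 to 6.31 times in the 4 WT animals. For Mical2 it was 5.66 to 6.72 times in QKO and 5.70 to 8.59 times in WT, and for Mical1 3.23 to 6.20 times in QKO and 2.79 to 4.70 times in WT. The oxidases therefore overlapped between genotypes in this ratio. For Msrb1 it was 0.207 to 0.373 in QKO animals and 0.136 to 0.182 in WT animals, ranges that did not overlap. The share of all genes with such a gap was not counted, and the interaction term of Msrb1 did not pass (adjusted p = 0.851 by edgeR). For Msra it was 0.194 to 0.247 in QKO and 0.172 to 0.196 in WT, ranges that overlapped narrowly. Msrb3 had ratios of 2.42 to 4.60 in QKO and 4.47 to 5.97 in WT, which also overlapped.

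**Figure D3:**
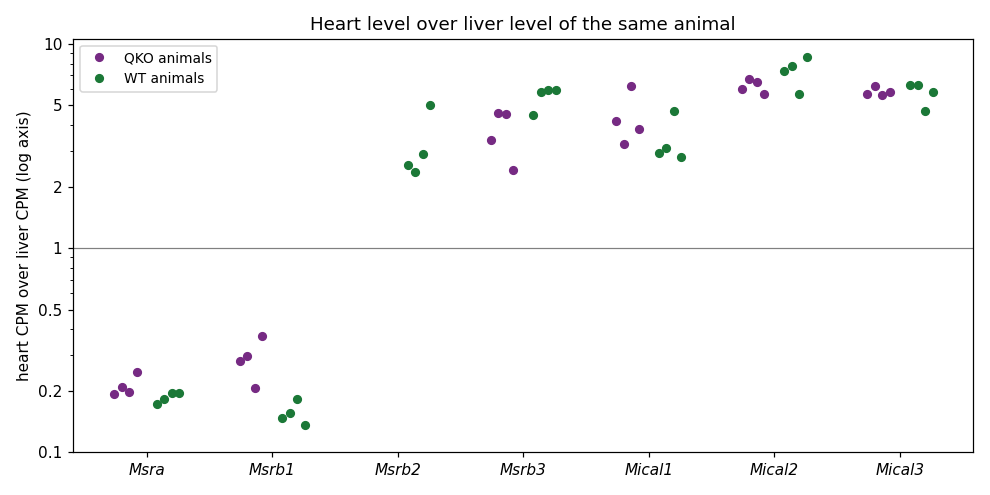
Heart level divided by liver level of the same animal for each gene on a log axis, with QKO left of WT; each point is 1 animal and no point is drawn for Msrb2 of QKO, whose liver counts were 4, 3, 0 and 3. The 3 Mical genes, Msrb2 and Msrb3 lie above 1 and Msra and Msrb1 lie below 1 in every animal drawn.

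To compare levels between genes, CPM were divided by the length of the gene's exons in kilobases (CPM per kb). In WT heart Msrb1, Msrb3 and Msrb2 were at similar levels, 12.1 ± 0.816, 11.9 ± 0.390 and 9.41 ± 0.838 CPM per kb (SD, n = 4), and Msra had 2.40 ± 0.181 CPM per kb. In WT liver Msrb1 led with 78.3 ± 8.68 CPM per kb, ahead of Msra with 12.9 ± 1.38, Msrb2 with 3.24 ± 1.13 and Msrb3 with 2.19 ± 0.328 CPM per kb. Msrb1 thus made up 33.7 ± 0.987% of the reductase RNA in WT heart and 81.0 ± 2.39% in WT liver. In QKO heart its share was 81.7 ± 1.66%, and in QKO liver 87.3 ± 2.38%. The Msrb2 share was 0.577% in QKO heart, against 26.3% in WT heart, and the Msrb3 share was 9.57% in QKO heart, against 33.4% in WT heart. The share of Msrb1 also rises when the other reductases, which the knockout targets, fall.

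Among the oxidases the order by mean CPM per kb was Mical3, Mical2 and Mical1 in all 4 groups. Single libraries departed from it. Mical2 was above Mical3 in WT heart 2 (2.127 and 2.009 CPM per kb), and Mical1 was above Mical2 in WT liver 4 (0.2307 and 0.2065 CPM per kb). WT heart had 2.04 ± 0.0570 CPM per kb of Mical3, 1.93 ± 0.158 of Mical2 and 0.667 ± 0.0220 of Mical1 (SD, n = 4). The SD ranges of Mical3 and Mical2 overlapped in WT heart, and Mical1 was lower than both. The Mical3 share of oxidase RNA was 47.7 ± 2.57% in QKO heart, 44.0 ± 1.55% in WT heart, 45.9 ± 4.87% in QKO liver and 42.9 ± 3.77% in WT liver, so Mical3 led on average in each group. The Mical2 share was 34.2 to 38.6% in QKO hearts and 40.1 to 44.2% in WT hearts, ranges that did not overlap. In liver it was 31.3 to 34.6% in QKO and 26.3 to 36.7% in WT, ranges that did. How often such a gap arises in shares of other genes was not counted, and the shares were not tested. A share also moves with the levels of the other oxidases, and Mical2 itself did not pass in heart (adjusted p = 0.655 by edgeR).

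**Figure D4:**
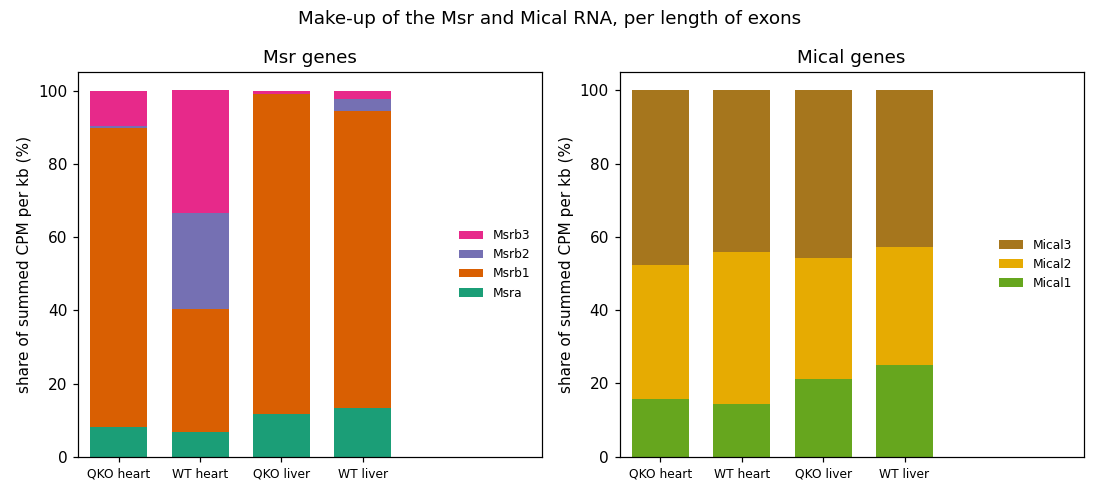
Share of each gene in the summed CPM per kb of the reductases and of the oxidases, in percent, as means of 4 libraries, with QKO left of WT in each tissue. Msrb1 makes up 81.7% of the reductase RNA in QKO heart and 33.7% in WT heart, while Mical3 has the largest mean share of the oxidase RNA in each group.

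Summed over the family, reductase RNA was 20.4 ± 1.68 CPM per kb in QKO heart and 35.8 ± 1.74 in WT heart, and 68.5 ± 14.7 in QKO liver and 96.6 ± 9.88 in WT liver (SD, n = 4 each). Oxidase RNA was 4.57 ± 0.123 in QKO heart and 4.63 ± 0.199 in WT heart, and 0.816 ± 0.0469 in QKO liver and 0.833 ± 0.0765 in WT liver. The ratio of oxidase to reductase RNA was 0.207 to 0.241 in QKO hearts and 0.125 to 0.135 in WT hearts, ranges that did not overlap. In liver it was 0.00861 to 0.0151 in QKO and 0.00756 to 0.0114 in WT, ranges that overlapped. Divided by the length of the longest transcript instead, the ratios were 0.431 to 0.504 in QKO hearts and 0.257 to 0.277 in WT hearts, and 0.0180 to 0.0300 in QKO livers and 0.0147 to 0.0229 in WT livers. The size of the ratio thus depends on the length used, while the heart ranges stayed apart and the liver ranges overlapped with both lengths. The denominator is the sum of the genes that the knockout targets. The gap between the heart ratios is therefore no result separate from the fall of the reductases. Protein was not measured.

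Genes that work with these enzymes were counted in 8 lists. None of the 87 tested list genes passed in heart or in liver between QKO and WT by edgeR, where 0.165% and 0.0846% of all genes passed; 8 in heart and 2 in liver had an unadjusted p under 0.05, as had 7.19% and 3.29% of all genes, and DESeq2 and limma-voom called 0 in both tissues. The thioredoxin and glutaredoxin system, which returns electrons to the reductases, had a median log2 fold change of 0.08 in heart and 0.10 in liver over 14 genes (median of all genes 0.00 in heart and -0.01 in liver). Txndc17, a thioredoxin-like protein, had 10.4 to 12 CPM in QKO hearts and 8.77 to 11 CPM in WT hearts (log2 fold change 0.22, adjusted p = 0.660 by edgeR). The selenocysteine insertion list, needed to make MsrB1, had medians of 0.01 in heart and -0.01 in liver over 8 genes. Sephs2, which makes the selenium donor, had 409 to 594 CPM in QKO livers and 351 to 467 CPM in WT livers (log2 fold change 0.31, adjusted p = 1.00).

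Of the actin list, Acta1, skeletal alpha-actin, had 52.6 to 115 CPM in QKO hearts and 26.1 to 58.3 CPM in WT hearts (log2 fold change 1.04, SE 0.261, adjusted p = 0.314 by edgeR). Acta2, smooth muscle alpha-actin, had 14.1 to 37.1 CPM in QKO hearts and 8.22 to 25.3 CPM in WT hearts (log2 fold change 0.82, adjusted p = 0.660). Both ranges overlapped, and these genes passed only in the fit without an expression filter. The list of SRF with its MRTF partners and targets had medians of 0.04 in heart over 16 genes and 0.00 in liver over 15. Fhl2, an SRF target, had 604 to 706 CPM in QKO hearts and 474 to 597 CPM in WT hearts, which did not overlap (log2 fold change 0.24, adjusted p = 0.660 by edgeR). It was named for its low p within the list. Of all genes tested in heart, 4.67% did not overlap, 2.3% being higher in QKO. In liver Gsn, the filament-severing gelsolin, had 10.2 to 21.9 CPM in QKO and 17.9 to 50.7 CPM in WT (log2 fold change -0.84, adjusted p = 1.00).

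The lists of MICAL-like proteins with Rab partners, semaphorins with plexins, and calmodulin with its kinase also stayed below the threshold. Rab1b, a small GTPase of early secretion, had 30.2 to 39.8 CPM in QKO hearts and 31.7 to 33.6 CPM in WT hearts. Calm3, a calmodulin gene, had 43.3 to 47.5 CPM in QKO hearts and 38.3 to 44.5 CPM in WT hearts. Both genes had ranges that overlapped between genotypes.

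Between WT heart and WT liver the lists went different ways by edgeR. Of all genes tested, 35.6% passed as higher in heart and 36.9% as lower. In the SRF list 13 of 16 genes were higher in heart and 0 lower, and in the semaphorin and plexin list 9 of 12 were higher and 0 lower. In the thioredoxin list 2 of 14 were higher and 9 lower, and in the selenocysteine list 1 of 8 was higher and 6 lower. The actin list had 6 higher and 6 lower of 16, near the shares of all genes. The MICAL-like and Rab list had 6 higher and 4 lower of 11, and the calmodulin list 4 higher and 2 lower of 7. No list was tested against the shares of all genes.

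The protein-coding genes most like each member were found from log2(CPM + 0.5), centred on each gene's mean, by the root mean square difference over the 16 libraries among 11894 genes, the 7 members left out. Mical3 was closest to St6galnac4 (0.114) and Micall1 (0.124), Mical2 to Podxl (0.126) and Celf2 (0.137), and Mical1 to Asph (0.133) and Jpt1 (0.138), in log2 units. Msra was closest to Esd (0.208) and Manf (0.216), and Msrb1 to Echdc2 (0.220) and Mthfsl (0.240). Msrb3 and Msrb2 had no close match among these: the nearest were Syt11 (0.924) and Mgl2 (0.952) for Msrb3, and Ide (1.44) and Myh11 (1.56) for Msrb2. Between members, Mical2 and Mical3 differed by 0.192, Msra and Msrb1 by 0.391, Mical1 and Mical3 by 0.534, and Msrb2 and Msrb3 by 1.00. These distances describe the libraries, in which the step between tissues weighs most, and carry no test.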

How the data were processed

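The deposited values were raw read counts per gene from the authors, whole numbers for 16 libraries. Per the labels, libraries were stranded total RNA depleted of ribosomal RNA, sequenced in pairs of 75 bp. Per the submitters' processing notes, mm10, cutadapt, HISAT2 and featureCounts were used. The annotation release and strand setting are not given in the sources used here. Of 48709 identifiers, 48349 matched GENCODE M21. All columns were mapped by title, and 0 were left over. No pair of replicates was a copy (chi-square per gene of 26.3 or higher).

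Tests used edgeR 4.0.16 under R 4.3.3 (TMM, filterByExpr by group), with DESeq2 1.42.0 and limma-voom 3.58.1 as alternatives. SE is the absolute log2 fold change divided by the root of F. Fits were also run on simulated counts with changes put into few genes, whereas most genes passed between the tissues. The outcome is not given here, and no support is drawn from it. Heart and liver of a number are one animal (deviations correlated at 0.0396 to 0.147). Members, lists and the naming rule (members, the 2 lowest p-values of each list per comparison, the 2 nearest genes, overlapping genes) were chosen with earlier results of these data known. The result of 1 of the lists is not reported here.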

Additional observations from a re-analysis of the deposited data

Results flagged for a closer look

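In groups of 4 libraries, the gap from the highest or lowest library to its neighbour was set against the group's range (Dixon's ratio, at its 95% critical value). Of 36 groups tested, 5 passed, where chance gives about 1 in 20. Msrb1 in QKO liver 3 stood above the other QKO livers at 103 CPM. Mical1 in WT liver 3 was the lowest at 0.895 CPM, and the summed oxidase RNA of that library was the highest at 0.947 CPM per kb. This library also held 1090 pancreatic acinar marker counts per 1 M protein-coding counts, and the part of that RNA was not tested. Mical2 in QKO liver 4 was the highest at 4.66 CPM, and Mical3 in WT heart 3 the highest at 48.7 CPM. Per 1 M protein-coding counts, Mical3 in WT heart 3 was 126, below WT heart 1 at 129 and WT heart 4 at 151. Counted per 1 M protein-coding counts, Msrb1 in QKO liver 3 was 232, against 150, 160 and 150 in the other QKO livers and 210 to 256 in WT livers. On the same scale Mical1 in WT liver 3 was 2.28, against 3.06, 2.95 and 3.51 in WT livers 1, 2 and 4. Dixon's ratio was not computed on that scale.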

How the results depend on the processing

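Msrb2 and Msrb3 kept their direction and their call in both tissues in every fit run, and no called value of the 7 genes reversed. No Mical gene passed between genotypes in any of these fits. The heart count of 28 genes was 102 with no filter, 60 with DESeq2, 50 with the replicate block, 16 with all 16 libraries in 1 fit, and 18 to 25 without single libraries. The 4 members called in heart were 2 with all 16 libraries in 1 fit and 2 to 3 without single libraries. That fit gave Msra an adjusted p of 0.0781 and Msrb1 one of 0.996, and limma-voom gave Msra 0.0503. The liver count of 15 genes was 50 with DESeq2, 44 with all 16 libraries in 1 fit, 9 with protein-coding genes alone and 12 to 19 without single libraries. DESeq2 and the 16-library fit both called Msra in liver, the 16-library fit with an adjusted p of 0.00160. The interaction count of 1 gene was 2 with no filter, 12 with DESeq2, 0 with limma-voom, 0 with the replicate block of animals, and 1 to 2 without single animals. Per length of the longest transcript, the Msrb1 share was 77.6% in QKO heart, 31.3% in WT heart, 81.3% in QKO liver and 74.5% in WT liver, and the mean ratio of oxidase to reductase RNA 0.469, 0.265, 0.0248 and 0.0172 in the same order of groups. The causes of these shifts were not tested. The labels do not say that replicate numbers pair QKO with WT, so the numbers were not used as pairs. Deviations of QKO and WT libraries of a number correlated above 0.1 in 3 of 4 pairs in heart (0.0394 to 0.399). In liver 1 of 4 did so (-0.115 to 0.148). Heart and liver of the same animal correlated at only 0.0396 to 0.147, so these values cannot tell linked from unlinked libraries. As a hint from the data, 7 of 8 heart libraries and 2 of 8 liver libraries correlated best with their own number in the other genotype, so a link in heart cannot be dismissed. The block changed no call of the 7 genes. Depth limited Msrb2 of QKO, where 3 counts correspond to 0.0344 to 0.0585 CPM in liver.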
